A study of Saccharomyces cerevisiae with 8 samples.

Results

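The superoxide dismutase and catalase genes of *S. cerevisiae* are described here with the genes that equip the dismutases with their metals. The 6 genes were taken by systematic name from the 7126 genes counted: SOD1 (YJR104C), its copper chaperone gene CCS1 (YMR038C), SOD2 (YHR008C), the carrier gene MTM1 (YGR257C) that Sod2 depends on, and the catalase genes CTT1 (YGR088W) and CTA1 (YDR256C). On R64 they lie at chrX:622550-623014 (SOD1), chrXIII:347511-348260 (CCS1), chrVIII:122889-123590 (SOD2), chrVII:1006205-1007305 (MTM1) and chrIV:968133-969680 (CTA1) on the minus strand, and at chrVII:654634-656322 (CTT1) on the plus strand, each as 1 coding exon that no other annotated gene overlaps. RNA was sequenced from 8 cultures, 2 for each combination of strain and medium. The parent strain CRN is MATa ade2 his3 ura3 with PPN1, the polyphosphatase gene, replaced by CgTRP1, and CRN/PPN1 is the same strain with the plasmid pMB1/PPN1 Sc. The labels name no empty plasmid in CRN, so the plasmid and the PPN1 it carries cannot be told apart. All cultures grew at 29 °C in YPD with 14 mM KH2PO4, the control medium. The control cultures of CRN and CRN/PPN1 were taken after 12 h, those of CRN with 5 mM MnSO4 added (YPD-Mn) after 40 h, and those of CRN/PPN1 with 5 mM MnSO4 after 16 h. Growth time and manganese therefore cannot be told apart within a strain, nor growth time and strain in YPD-Mn.

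Superoxide dismutases turn superoxide into oxygen and hydrogen peroxide, and catalases split hydrogen peroxide into water and oxygen. Yeast has a copper-zinc dismutase, Sod1, mostly in the cytosol, and a manganese dismutase, Sod2, in the mitochondrial matrix. Ccs1 inserts copper into Sod1. Mtm1 belongs to the mitochondrial carrier family, and Sod2 gains its manganese poorly without it. Catalase T (Ctt1) is cytosolic and is known as a stress-induced enzyme, while catalase A (Cta1) sits in the peroxisome, where fatty acid oxidation releases peroxide; both hold heme.

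The libraries held between 2309776 and 3579469 reads on genes. PPN1 had between 3 and 39 counts in the 4 CRN libraries and between 7027 and 25525 in the 4 CRN/PPN1 libraries, with no overlap between the strains. A level below is a normalized CPM, the count relative to library size scaled by edgeR's TMM factors, which ran from 0.508 to 1.63. The value after ± is the SD of n = 2 cultures. Tests are edgeR's quasi-likelihood test with Benjamini-Hochberg adjustment over the 5778 genes that reached 2 CPM in at least 4 libraries, all 6 genes among them. A gene is called where the adjusted p is 0.05 or lower and the log2 fold change is 1 or more in size, and "rose" and "fell" are used of called genes. Scaling to library totals in place of TMM raises the median change of all genes with manganese, on the log2 scale, by 1.48 in CRN and 0.67 in CRN/PPN1, so every change below is relative to the other genes. In bulk cultures, fewer cells that express a gene and less of its RNA per cell cannot be told apart.

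**Figure D1:**
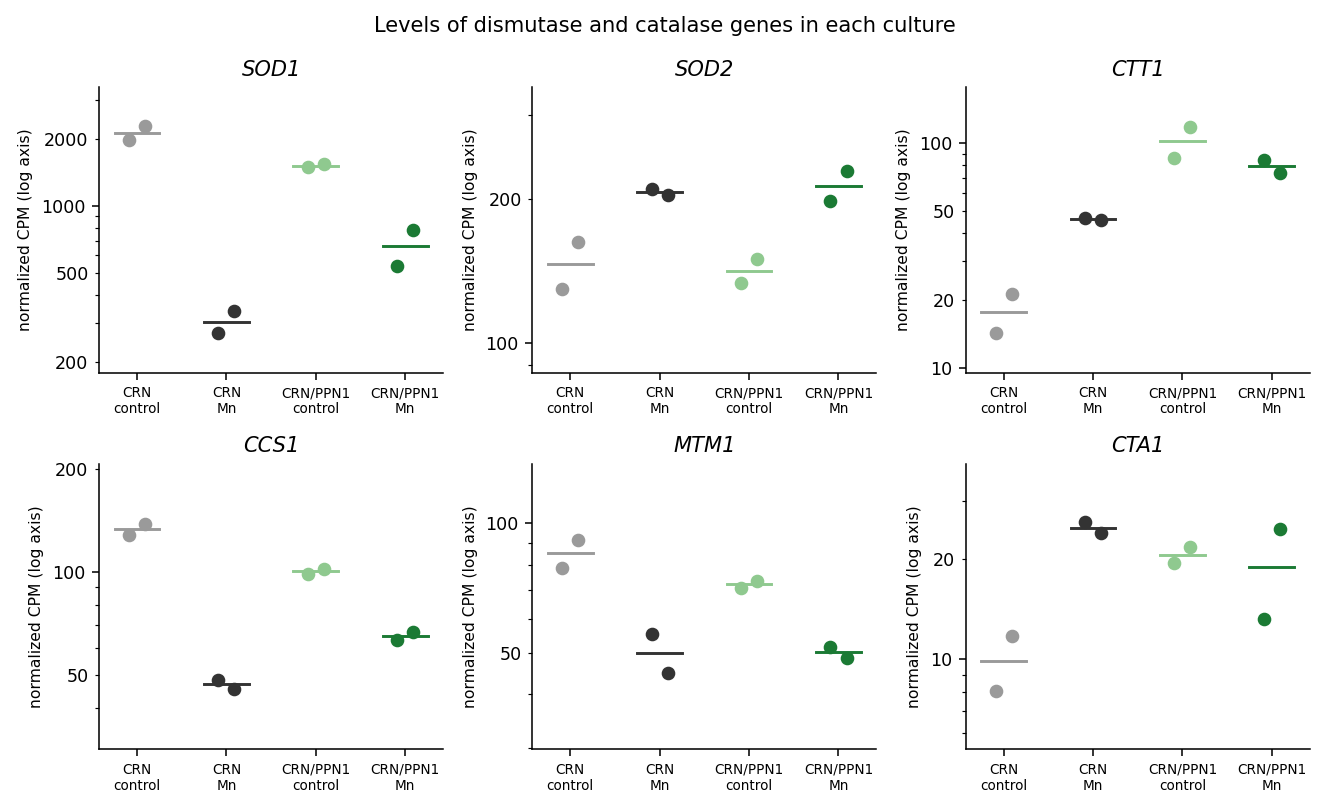
Each panel plots the normalized CPM (log axis) of a gene in the 8 cultures, as points, with the group mean as a line. SOD1 and CCS1 lay lowest in CRN in YPD-Mn, at 303 and 47.0 on average, while CTT1 lay lowest in CRN in YPD, at 17.8.

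With manganese, CRN had 2 of the 6 genes called up (CTT1 and CTA1) and 2 called down (SOD1 and CCS1). Over all tested genes 24.7% were called up and 24.0% down, so a share of this size is close to that of genes at large. In CRN/PPN1, 0 of the 6 were called up by edgeR (0 by DESeq2, 1 at an unadjusted p under 0.05, SOD2) and 1 was called down, SOD1, where 10.1% of all genes were called up and 15.1% down. Between the strains, CRN/PPN1 against CRN had 1 of the 6 called up in YPD, CTT1, beside 4.45% of all genes, and 1 called up in YPD-Mn, SOD1, beside 10.4%. None of the 6 was called down between the strains by edgeR or DESeq2, beside 4.45% of all genes in YPD and 7.37% in YPD-Mn. At an unadjusted p under 0.05, a looser limit than a call, 1 was lower in YPD (CCS1) and 0 in YPD-Mn. At an adjusted p of 0.05 or lower with any size of change, 6 of the 6 genes passed for manganese in CRN (63.8% of all genes), 3 in CRN/PPN1 (39.1%), 1 between the strains in YPD (15.4%), 2 between them with manganese (31.7%) and 3 in the interaction (30.5%). The groups did not overlap for 6 of the 6 genes for manganese in CRN, 5 in CRN/PPN1, 5 between the strains in YPD and 3 with manganese, beside 83.9%, 70.0%, 57.9% and 64.8% of all genes. In either direction 48.7%, 25.1%, 8.90% and 17.7% of all genes were called in these comparisons, and 26.6% in the interaction. The median log2 fold change of the 6 genes was -0.13 for manganese in CRN and -0.45 in CRN/PPN1, 0.089 and 0.015 over all genes, and between the strains -0.15 in YPD and 0.26 in YPD-Mn, against -0.0067 and -0.0082 over all genes. The comparisons share libraries: both that start from CRN in YPD use the same pair of cultures, as do those that start from any other group.

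**Figure D2:**
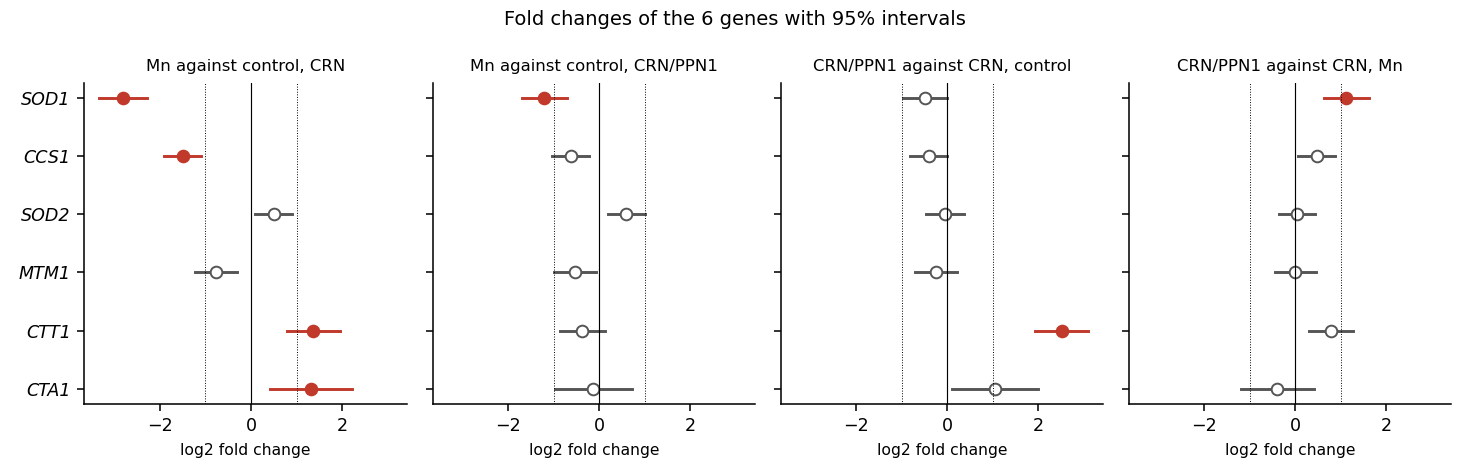
Log2 fold changes of the 6 genes (points) with 95% intervals (bars) in the 4 comparisons, in red with filled points where the gene was called; dotted lines mark 1 and -1. Filled points are SOD1, CCS1, CTT1 and CTA1 in CRN with manganese, SOD1 in CRN/PPN1 with manganese, CTT1 between the strains in YPD, and SOD1 between the strains in YPD-Mn.

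SOD1 was the most abundant of the 6 transcripts in every library, and its level fell with manganese in both strains. Its normalized CPM was 1979 and 2274 in CRN in YPD and 268 and 338 in CRN in YPD-Mn. In CRN/PPN1 it was 1489.5 and 1549 in YPD and 538 and 778 in YPD-Mn. Neither strain's media overlapped, and the manganese cultures of CRN lay below those of CRN/PPN1. The fall in CRN was from 2127 ± 209 to 303 ± 49.2, with log2 fold change -2.81 (SE 0.25, adjusted p = 9.09e-08, edgeR) or 7.02-fold. In CRN/PPN1 it was from 1519 ± 41.7 to 658 ± 169, with log2 fold change -1.21 (SE 0.23, adjusted p = 0.000779), which without replicate 1 of CRN/PPN1 in YPD-Mn is -0.95 and not called. The difference between these changes was itself called, with an interaction of 1.61 (95% interval 0.91 to 2.30, adjusted p = 0.00177), beside 15.0% of all genes called up and 11.6% called down in the interaction. In YPD-Mn SOD1 was 2.17-fold higher in CRN/PPN1 than in CRN (log2 fold change 1.12, SE 0.23, adjusted p = 0.00197). Leaving out replicate 1 of CRN or replicate 2 of CRN/PPN1 there gives 0.98 or 0.84, not called. In YPD the strains differed by -0.49 on the log2 scale (95% interval -0.97 to 0.0039, adjusted p = 0.184), a value of 0.010 with library totals.

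The fall of SOD1 went with its coding length of 465 bp. Genes with coding sequences of 78 to 648 bp, the shortest quintile, had a median log2 fold change of -2.29 with manganese in CRN and -1.21 in CRN/PPN1, against 0.61 and 0.27 for genes of 1476 to 2127 bp. With the trend of each library on length removed, the change of SOD1 was -0.56 in CRN (adjusted p = 0.0268), against -0.086 for CRN/PPN1 (adjusted p = 0.788), neither of them called, and the interaction was 0.48 (adjusted p = 0.243). The part of coding length in the change of SOD1 was not tested. In rank by level per kb of coding length, SOD1 stood between 132 and 175 of 5537 genes in all 8 libraries, in both media and strains.

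**Figure D3:**
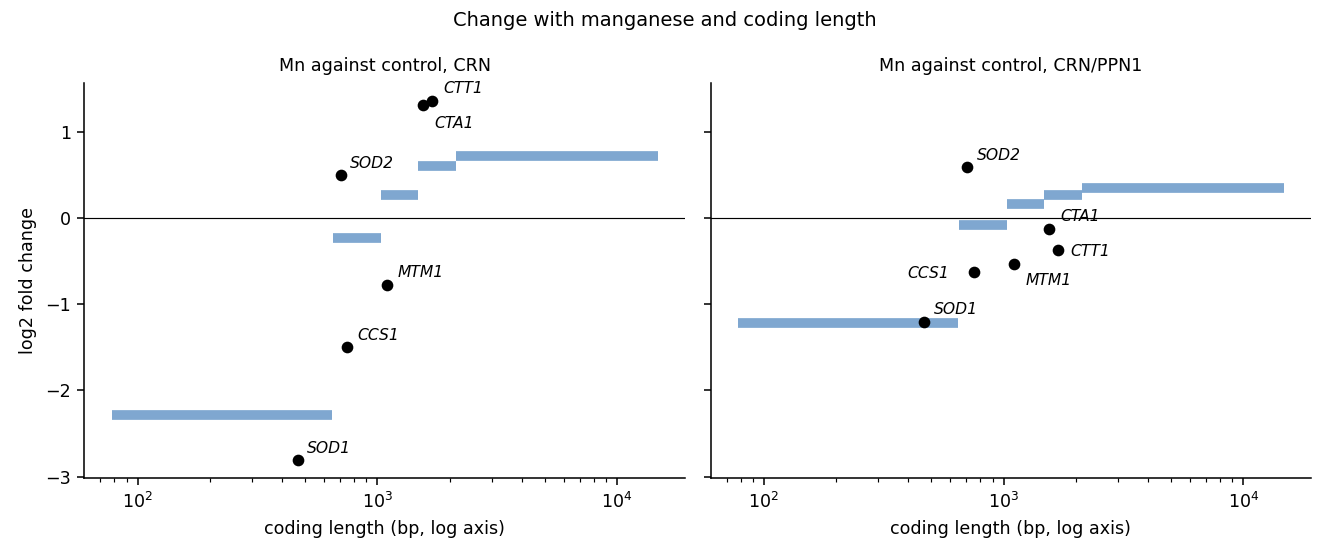
Log2 fold change with manganese against coding length (bp, log axis) in CRN (left) and CRN/PPN1 (right). Black points are the 6 genes and blue bars the median of all tested genes in each quintile of coding length; SOD1, at -2.81 in CRN and -1.21 in CRN/PPN1, lies below the bar of the shortest quintile (-2.29) in CRN and on it (-1.21) in CRN/PPN1, while CCS1 lies below and SOD2 above the bar of its quintile in both panels.

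CCS1, the copper chaperone gene, fell in CRN and took the same order over the groups as SOD1. Its normalized CPM was 128 and 138 in CRN in YPD and 48.4 and 45.6 in YPD-Mn, log2 fold change -1.50 (SE 0.19, adjusted p = 5.86e-06). In CRN/PPN1 it was 98.7 and 102 in YPD and 63.4 and 66.7 in YPD-Mn, a log2 fold change of -0.63 (95% interval -1.03 to -0.22, adjusted p = 0.0164), under the limit on size. No 2 groups of CCS1 overlapped. The interaction was 0.87 (95% interval 0.30 to 1.44, adjusted p = 0.0221), also under that limit. Between the strains CCS1 differed by -0.40 in YPD (adjusted p = 0.179), a value of 0.099 on library totals, and by 0.47 in YPD-Mn (adjusted p = 0.0728). CCS1, of 750 bp, lies in the quintile of 651 to 1032 bp, whose median was -0.23 in CRN and -0.074 for CRN/PPN1. After removal of the length trend its change in CRN was -0.89 (adjusted p = 0.000754). On library totals it was -0.021 in CRN and 0.039 for CRN/PPN1, with 74.3 to 89.5 CPM in 7 of the 8 libraries and 65.1 in replicate 1 of CRN in YPD.

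The SOD1 transcript outnumbered the CCS1 transcript by a different factor in each medium. Per kb, SOD1 stood at 24.9 and 26.7 times CCS1 in CRN in YPD and at 24.3 and 24.4 times in CRN/PPN1. In YPD-Mn these ratios were 8.93 and 12.0 in CRN and 13.7 and 18.8 in CRN/PPN1. A ratio within a library does not depend on the scaling, but the genes differ in length, so the length trend above enters it.

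SOD2, the gene of the manganese dismutase, was somewhat higher in YPD-Mn in both strains. In CRN its normalized CPM was 130.0 and 163 in YPD and 210.2 and 205 in YPD-Mn, with log2 fold change 0.50 (SE 0.19, 95% interval 0.095 to 0.91, adjusted p = 0.0316). In CRN/PPN1 it was 134 and 149.6 in YPD and 199 and 229 in YPD-Mn, with log2 fold change 0.59 (SE 0.19, 95% interval 0.19 to 1.00, adjusted p = 0.0216). Both manganese cultures lay above both control cultures in each strain, but neither change reached the limit on size. The strains did not separate in either medium: the log2 difference of CRN/PPN1 from CRN was -0.049 in YPD (95% interval -0.46 to 0.36) and 0.043 in YPD-Mn (95% interval -0.35 to 0.44). The interaction was 0.092 (95% interval -0.48 to 0.66, adjusted p = 0.830). These 3 differences took the other sign on library totals, at 0.44, -0.27 and -0.71, and were not called there either. SOD2, of 702 bp, shares the length quintile of CCS1. Its change in CRN was 1.33 with the length trend removed (adjusted p = 1.84e-05) and 1.97 on library totals (adjusted p = 1.61e-07), both called. By level per kb, SOD2 stood between rank 852 and 1052 of 5537 in the control cultures, between 476 and 537 in CRN/PPN1 in YPD-Mn, and at 368 and 393 in CRN in YPD-Mn.

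The ratio of the dismutase transcripts was lower in YPD-Mn. Per kb, SOD1 stood at 23.0 and 21.1 times SOD2 in CRN in YPD, and at 1.92 and 2.49 times in YPD-Mn. In CRN/PPN1 the ratios were 16.8 and 15.6 in YPD and 4.09 and 5.14 in YPD-Mn. The 4 groups did not overlap, and the manganese cultures of CRN had the lowest ratios. The coding lengths differ less here, 465 against 702 bp, but they fall in different quintiles, and the length trend enters this ratio too.

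MTM1, by contrast, was lower in YPD-Mn. Its normalized CPM was 78.6 and 91.5 in CRN in YPD and 55.2 and 44.7 in YPD-Mn, with log2 fold change -0.77 (SE 0.21, adjusted p = 0.00508). In CRN/PPN1 it was 70.5 and 73.5 in YPD and 51.4 and 48.6 in YPD-Mn, a log2 fold change of -0.52 (95% interval -0.98 to -0.069, adjusted p = 0.0648). Neither was called, and the direction turned on library totals, to 0.70 in CRN (adjusted p = 0.0177) and 0.14 for CRN/PPN1. With the length trend removed it was -0.98 in CRN (adjusted p = 0.000769). The strains differed by -0.24 in YPD (adjusted p = 0.513) and 0.0028 in YPD-Mn (adjusted p = 0.994), neither called. SOD2 stood at 2.59 and 2.79 times MTM1 per kb in CRN in YPD and 5.97 and 7.17 times in YPD-Mn, with 2.97 and 3.19 against 6.06 and 7.38 in CRN/PPN1. These ratios had no overlap between the media in either strain.

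Windows upstream of the dismutase genes are printed because both hold the letters of sites for stress factors: AGGGG, the stress response element read by Msn2 and Msn4, and the site of Yap1, TTACTAA. Capitals mark these letters, and the CCAAT box of the Hap complex, on either strand. The sequences are from the RefSeq R64 genome, the assembly behind the authors' sacCer3, and run from 250 or 300 to 101 bases before the start codon, on the strand of the gene, here the minus strand.
SOD1 (chrX:623115-623264): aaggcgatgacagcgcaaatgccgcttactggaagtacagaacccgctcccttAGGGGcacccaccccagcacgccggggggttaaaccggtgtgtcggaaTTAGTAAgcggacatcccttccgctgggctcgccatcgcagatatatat
SOD2 (chrVIII:123691-123890): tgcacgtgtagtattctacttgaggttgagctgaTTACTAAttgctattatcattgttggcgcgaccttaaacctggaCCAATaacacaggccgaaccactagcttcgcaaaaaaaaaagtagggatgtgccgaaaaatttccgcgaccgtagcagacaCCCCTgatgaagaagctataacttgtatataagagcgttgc
In the 500 bases before the start codon, SOD1 has 1 AGGGG, 1 Yap1 site and 4 CCAAT boxes, and SOD2 has 1, 1 and 2. Of 5992 such windows over the genome, 34.1% hold AGGGG, 11.8% the Yap1 site and 62.4% a CCAAT box on either strand.

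CTT1, the gene of cytosolic catalase T, gave the largest strain difference of the 6 genes. In YPD its normalized CPM was 14.2 and 21.3 in CRN and 86.4 and 119 in CRN/PPN1, so the strains did not overlap. The rise was from 17.8 ± 5.02 to 103 ± 22.8, with log2 fold change 2.52 (SE 0.27, 95% interval 1.93 to 3.10, adjusted p = 3.64e-05) or 5.72-fold. Of all tested genes, 98.7% had a lower log2 fold change in this comparison. It was called under each of the 16 alternatives tried, with values from 1.89 (counts on either strand) to 3.02.

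With manganese, CTT1 rose in CRN but was not called in CRN/PPN1. Its normalized CPM in YPD-Mn was 46.5 and 45.7 in CRN, with log2 fold change 1.36 (SE 0.27, adjusted p = 0.00044). In CRN/PPN1 in YPD-Mn it was 84.7 and 73.9, against 86.4 and 119 without, a log2 fold change of -0.37 (95% interval -0.86 to 0.12, adjusted p = 0.219), which turned to 0.29 on library totals. The difference between the changes was called, with an interaction of -1.73 (95% interval -2.49 to -0.97, adjusted p = 0.00194). All 4 cultures of CRN/PPN1 lay above all 4 of CRN, though on library totals replicate 1 of CRN/PPN1 in YPD (69.0 CPM) lay below both of CRN in YPD-Mn (74.7 and 74.6). In YPD-Mn the strain difference was 0.78 (95% interval 0.29 to 1.27, adjusted p = 0.017), under the limit on size, and 0.47 on library totals (adjusted p = 0.186). The rise in CRN lost its call on counts of either strand (0.72, adjusted p = 0.0163) and with the length trend removed (0.81, adjusted p = 0.0167). CTT1, of 1689 bp, lies in the quintile of 1476 to 2127 bp, whose median was 0.61 in CRN.

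CTA1, the peroxisomal catalase A gene, was the least abundant of the 6 transcripts, and its calls rest on 13 to 140 counts a library. Its normalized CPM was 8.05 and 11.8 in CRN in YPD and 25.9 and 24.0 in YPD-Mn, with log2 fold change 1.32 (SE 0.42, 95% interval 0.42 to 2.22, adjusted p = 0.0131). Without replicate 1 of CRN in YPD the value was 1.08 and was not called (adjusted p = 0.0957). In CRN/PPN1 it was 19.6 and 21.7 in YPD and 13.3 and 24.6 in YPD-Mn, so these groups overlapped. The log2 fold change there was -0.12 (95% interval -0.96 to 0.71, adjusted p = 0.829), and 0.54 on library totals. In YPD CRN/PPN1 was 2.07-fold higher than CRN, with no overlap but no call (log2 fold change 1.05, 95% interval 0.11 to 1.99, adjusted p = 0.129). The interaction was -1.44 (95% interval -2.68 to -0.21, adjusted p = 0.0711). In YPD-Mn the strains overlapped (-0.39, 95% interval -1.19 to 0.40, adjusted p = 0.453).

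Per kb, CTT1 stood at 1.62 to 1.75 times CTA1 in the 4 CRN libraries, in YPD-Mn and without. In CRN/PPN1 the ratio was 4.05 and 5.00 in YPD and 5.86 and 2.75 in YPD-Mn. Every CRN/PPN1 culture had a higher ratio than every CRN culture. The coding sequences differ little in length, 1689 and 1548 bp, and lie in the same quintile.

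Windows upstream of the catalase genes are printed because CTT1 holds AGGGG several times and CTA1 not at all. Capitals mark the letters named above and TTGGAG, a core of sites of Adr1, which activates peroxisomal genes. Positions run from 400 (CTT1) or 300 (CTA1) to 101 bases before the start codon, on the plus strand for CTT1 and the minus strand for CTA1.
CTT1 (chrVII:654234-654533): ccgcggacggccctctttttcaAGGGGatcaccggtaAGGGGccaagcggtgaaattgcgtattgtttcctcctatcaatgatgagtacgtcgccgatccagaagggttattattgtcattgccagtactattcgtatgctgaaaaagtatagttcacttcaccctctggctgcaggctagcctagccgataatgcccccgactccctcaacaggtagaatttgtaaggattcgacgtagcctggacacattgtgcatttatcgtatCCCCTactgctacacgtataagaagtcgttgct
CTA1 (chrIV:969781-969980): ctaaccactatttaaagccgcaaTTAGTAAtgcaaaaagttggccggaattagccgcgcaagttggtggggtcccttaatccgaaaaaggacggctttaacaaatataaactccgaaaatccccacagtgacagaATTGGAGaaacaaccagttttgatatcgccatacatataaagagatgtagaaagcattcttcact
In the 500 bases before the start codon CTT1 holds AGGGG 3 times, starting 378, 363 and 133 bases before it, and 1.84% of the 5992 windows hold it 3 times or more. CTA1 holds it 0 times, with 1 Yap1 site (11.8% of windows) and 1 TTGGAG (18.5%), whose letters overlap a CCAAT box. A match of letters does not show that a factor binds there.

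Other genes that Msn2 and Msn4 are known to activate were also higher in CRN/PPN1 in YPD. Of 14 such genes (heat shock, trehalose and glycogen, and sugar kinase genes), 14 were called up by strain, CRN/PPN1 over CRN, in YPD, beside 4.45% of all genes. Their median log2 fold change was 1.79 against -0.0067 over all genes. The 14 genes were listed with earlier results of these data known, so this count is a description and not a test. The largest rises were those of HSP12, a membrane-stabilizing heat shock protein gene, with 4.69 (adjusted p = 5.35e-08), and the stress gene DDR2 with 3.74 (adjusted p = 1.74e-07). HSP12 had 134 and 125 normalized CPM in CRN and 2992 and 3669 in CRN/PPN1. The value of CTT1, 2.52, is above that of 12 of the 14. The MSN2 and MSN4 transcripts were not called between the strains in YPD, at 0.28 (adjusted p = 0.677) and 0.086 (adjusted p = 0.899). In YPD-Mn MSN2 was lower in CRN/PPN1 (-1.10, adjusted p = 0.0105), while MSN4 was not called (-0.075, adjusted p = 0.859). The part of these factors in the changes was not tested.

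With manganese in CRN 12 of the 14 were called up, beside 24.7% of all genes, with a median of 2.37, led by the small heat shock protein gene HSP26 with 4.32 and DDR2 with 4.11, while CTT1 rose by 1.36. In CRN/PPN1 4 of the 14 were called up, beside 10.1%, led by HSP26 with 2.74 and the trehalose synthase subunit gene TSL1 with 1.74. HSP12 fell by 1.56 on the log2 scale (adjusted p = 9e-05), beside 15.1% of all genes called down. On library totals its change was -0.90 and not called. HSP12, of 330 bp, lies in the shortest quintile, whose median there was -1.21. The median of the 14 was 0.77. CTT1 stood at -0.37. In YPD-Mn 3 of the 14 were called up in CRN/PPN1, beside 10.4%, led by the hexokinase gene HXK1 with 1.54 and HSP12 with 1.17. On library totals HXK1 had 1.22, still called, and HSP12 had 0.86, not called. The interaction was called down for 10 of the 14, as it was for CTT1, beside 11.6% of all genes.

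**Figure D4:**
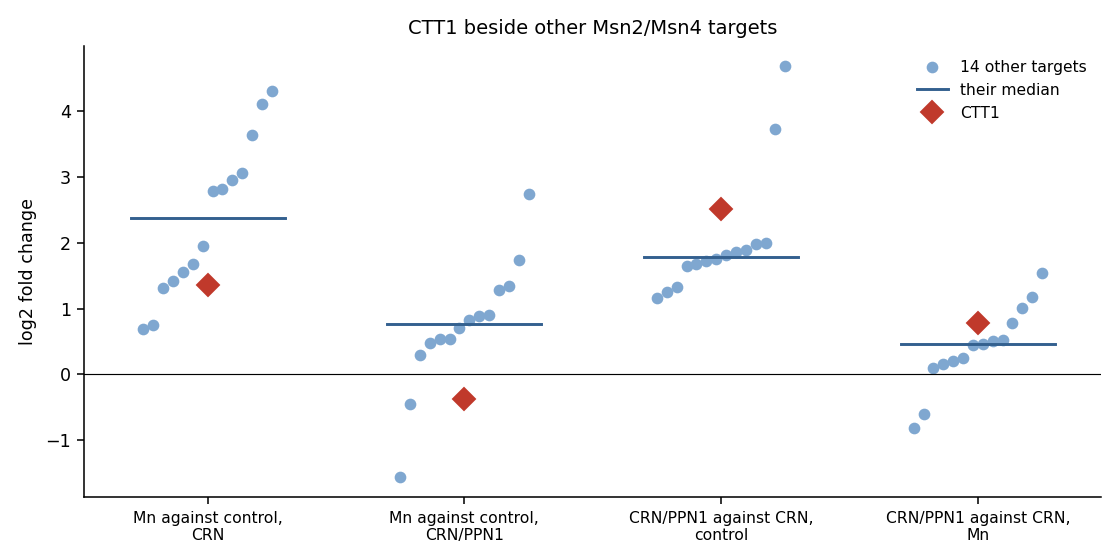
Log2 fold changes of CTT1 (red diamond) and of 14 other targets of Msn2 and Msn4 (blue points, in order of size, with their median as a line) in the 4 comparisons. CTT1 lies above the median of 1.79 between the strains in YPD, and below the medians of 2.37 and 0.77 for manganese in CRN and CRN/PPN1.

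Among 12 listed transcription factor genes, ADR1 changed the most. Whether these factors act on the dismutase and catalase genes in these cultures was not tested. Of the 12 factor genes, 7 were called up and 1 down with manganese in CRN; CRN/PPN1 had 3 up and 1 down. The shares over all genes were 24.7% up and 24.0% down in CRN, with 10.1% and 15.1% for CRN/PPN1. Between the strains edgeR called 3 up and 0 down in YPD (1 down by DESeq2 and 1 at an unadjusted p under 0.05), and 4 down in YPD-Mn, beside 4.45% in each direction and 7.37% of all genes. ADR1 had 9.90 and 10.7 normalized CPM in CRN in YPD, 849 and 916 in CRN in YPD-Mn, 29.8 and 40.9 in CRN/PPN1 in YPD, and 114 and 149 in CRN/PPN1 in YPD-Mn. Its log2 fold change with manganese was 6.42 in CRN (adjusted p = 8.39e-10), against 1.90 for CRN/PPN1 (adjusted p = 1.41e-05), an interaction of -4.52. The Adr1 core stands before CTA1, which was at 25.9 and 24.0 where ADR1 was highest. CTA1 was at 8.05 and 11.8 where ADR1 was lowest, in CRN in YPD. In CRN/PPN1 CTA1 was at 19.6 and 21.7 in YPD and at 13.3 and 24.6 in YPD-Mn. The letters of the Adr1 core also stand 492 bases before the start codon of CCS1, but beyond the 383 bp that separate CCS1 from the next gene. CCS1 was at 48.4 and 45.6 where ADR1 was highest, its lowest levels. Whether Adr1 acts on either gene was not tested. PIP2, a factor of oleate-responsive genes, was second with 3.11 in CRN. HAP4, the activator subunit of the Hap complex, had 2.11 in CRN and 1.16 in CRN/PPN1, and was 1.35 higher in CRN/PPN1 without manganese. HAP3, a DNA-binding subunit of the same complex, had log2 fold changes of -1.46 in CRN and -1.52 in CRN/PPN1. On library totals these were 0.0092 and -0.84, neither called. Among the 4 lower in CRN/PPN1 with manganese were ADR1 at -2.75 and PIP2 at -1.36.

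The genes of peroxisomal fatty acid oxidation and import, the setting in which Cta1 works, were called up in part in YPD-Mn. Of 12, 6 rose in CRN and 1, POT1, in CRN/PPN1, beside 24.7% and 10.1% of all genes, and the interaction was called down for 6, beside 11.6%. Between the strains 2 were called up in YPD and 4 down in YPD-Mn, beside 4.45% and 7.37%. POT1, the thiolase gene, had 0.62 and 2.25 normalized CPM in CRN in YPD and 53.3 and 61.2 in YPD-Mn. SPS19, a dienoyl-CoA reductase gene, had 2.48 and 0.56 against 39.5 and 31.9. In CRN/PPN1, POT1 had 2.45 and 2.17 in YPD and 10.7 and 18.4 in YPD-Mn. CTA1 shared the direction in CRN at a smaller scale, from 9.92 ± 2.65 to 24.9 ± 1.33.

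Of 9 tested genes of copper uptake and handling, 2 were called up and 2 down with manganese in CRN, near the 24.7% and 24.0% of all genes, against 2 up and 1 down for CRN/PPN1, beside 10.1% and 15.1%. Those called up encode metal reductases and a copper importer, and the products of those called down carry copper to other targets than Sod1. The metal reductase genes FRE2 and FRE1 rose in CRN by 2.48 and 1.37, and FRE1 and the copper importer gene CTR1 in CRN/PPN1 by 1.39 and 1.03. The copper chaperone genes COX17, which serves cytochrome oxidase, and ATX1, which serves the Golgi, fell in CRN by 4.32 and 2.45 on the log2 scale, and COX17 in CRN/PPN1 fell by 1.53. Their coding sequences have 210 and 222 bp, in the shortest quintile like SOD1. On library totals COX17 had -2.84 in CRN and -0.86 in CRN/PPN1 and ATX1 -0.95 in CRN, of which the last 2 were not called. In YPD FRE2 was higher (1.81) and COX17 lower (-1.03, or -0.52 and not called on library totals) in CRN/PPN1. Over all genes 4.45% were called in each direction in YPD. In YPD-Mn ATX1 and COX17 were higher in CRN/PPN1, by 1.95 and 1.76, and FRE2 lower (-1.01). Over all genes 10.4% were called up and 7.37% down there. SOD1 was higher there too, and the shortest quintile, which holds SOD1, ATX1 and COX17, had a median of 0.59 in that comparison. DESeq2 called 0 of the copper genes down in that comparison. The paired copies of the metallothionein gene, CUP1-1 and CUP1-2, had at most 13.9 normalized CPM; they are near-identical, and the counts hold only reads with a single place in the genome.

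Genes of manganese supply were called at about the share of all genes with manganese in CRN, and heme synthesis genes at 1 in all. Of 8 manganese genes, SMF2, an importer, and PMR1, the Golgi pump, were called up with manganese in CRN. PHO84, the phosphate importer that also carries manganese, and GDT1, a Golgi exchanger, were called down there, with -2.29 and -1.62. On library totals PHO84 had -0.83 and GDT1 -0.13, neither called. These 2 up and 2 down stand beside 24.7% and 24.0% of all genes. In CRN/PPN1, edgeR and DESeq2 called 0 of the 8 in either direction, beside 10.1% of all genes called up and 15.1% down. At an unadjusted p under 0.05, 1 was higher and 2 lower. Between the strains in YPD, BSD2, whose product acts in the turnover of metal importers, was called up (1.10) and PHO84 down (-5.59). These stand beside 4.45% of all genes in each direction. In YPD-Mn PHO84 was called down (-4.06), beside 7.37% of all genes. The interaction was called up for 2 (GDT1 with 1.71 and PHO84 with 1.53, at 0.89 and 0.73 on library totals and not called there) and down for 2 (BSD2 with -1.54 and the importer gene SMF1 with -1.04), beside 15.0% and 11.6% of all genes. DESeq2 called the interaction up for 2 and down for 1 of the manganese genes. PHO84 was at 722 and 906 normalized CPM in CRN in YPD and between 8.09 and 21.3 in the 4 CRN/PPN1 cultures. Of 8 heme synthesis genes, which make the cofactor of both catalases, 1 was called in any of the 4 comparisons: HEM4, with -1.03 in CRN with manganese (adjusted p = 0.0347), which turned to 0.46 on library totals. DESeq2 gave the same counts. Over all genes 48.7% and 25.1% were called in either direction with manganese in CRN and CRN/PPN1. Between the strains these shares were 8.90% in YPD and 17.7% in YPD-Mn. At an unadjusted p under 0.05, a looser limit than a call, 2 of the 8 passed in CRN with manganese and 1 in CRN/PPN1. Between the strains 1 passed in YPD and 2 in YPD-Mn.

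Peroxidases share the peroxide of the dismutases with the catalases. Of 9, 1 was called up and 2 down with manganese in each strain, beside 24.7% and 24.0% of all genes in CRN and 10.1% and 15.1% in CRN/PPN1. The peroxiredoxin gene AHP1 rose with manganese in both strains, by 1.72 in CRN and 1.24 in CRN/PPN1, at a coding length of 531 bp in the shortest quintile. HYR1, the peroxide sensor of Yap1, fell by 2.15 and 1.12 on the log2 scale, GPX2 by 1.92 in CRN and GPX1 by 1.12 in CRN/PPN1. These 3 genes, of 489 to 504 bp, also lie in that quintile, whose medians were -2.29 and -1.21, and none of the falls was called on library totals (HYR1 -0.64 and -0.45, GPX2 -0.43, GPX1 -0.46). In YPD GPX1 was higher (1.73) and GPX2 lower (-1.32, or -0.81 and not called on library totals) in CRN/PPN1. Over all genes 4.45% were called in each direction there. In YPD-Mn 0 of the 9 were called between the strains by edgeR or DESeq2, beside 10.4% of all genes called up and 7.37% down. There were 2 at an unadjusted p under 0.05. Of these PRX1, a mitochondrial peroxiredoxin gene, also passed after adjustment (0.60, adjusted p = 0.0324) but not the limit on size. Of 5 genes of mitochondrial import, 1 was called, ERV1, which acts with Mia40 on Ccs1 and Sod1 in the intermembrane space. It fell with manganese in CRN by 2.87 on the log2 scale, beside 24.0% of all genes called down. In YPD-Mn it was 1.48 higher in CRN/PPN1, beside 10.4% called up. ERV1, of 570 bp, lies in the shortest quintile, whose medians were -2.29 and 0.59 in these comparisons. On library totals its values were -1.39 and 1.17, both still called. The other 4, MIA40 among them, were not called in any of the 4 comparisons by edgeR or DESeq2. Over all genes edgeR called 48.7% and 25.1% with manganese in CRN and CRN/PPN1, and 8.90% and 17.7% between the strains in YPD and YPD-Mn.

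Reads on the strand opposite to the transcript were a large share of the reads at CTA1 in every library and at CTT1 in CRN in YPD. CTA1 had 32 and 24 such reads beside 13 and 21 of its own in CRN in YPD, shares of 71.1% (95% Wilson interval 56.6% to 82.3%) and 53.3% (39.1% to 67.1%). In the other 6 libraries the share was 33.6% to 57.7%. In CRN in YPD-Mn, reads of CTA1 on both strands were many: 133 and 140 on its own and 92 and 103 on the other. No annotated gene overlaps CTA1, and its neighbours RMD5 and RKM4 lie 310 and 309 bp away on the same strand. Counted on either strand, CTA1 changed by 0.71 with manganese in CRN (adjusted p = 0.0299) and was not called.

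For CTT1 the share was high only where the gene was low. In CRN in YPD 22 and 14 reads lay on the other strand beside 23 and 38, shares of 48.9% (35.0% to 63.0%) and 26.9% (16.8% to 40.3%). In CRN/PPN1 in YPD the share was 5.36% and 4.21%, and in the 4 manganese libraries 0% to 1.11%. In numbers of reads the other strand had 12 and 12 in CRN/PPN1 in YPD and 0 to 3 in the manganese libraries; the library with 0 had 239 on the gene's own strand, which allows a share of up to 1.58% (Wilson). Among all tested genes the median share was 0.38% to 2.86% a library, and 8.60% to 13.2% of genes exceeded 25%. SOD1 stood at 0% to 0.54%, SOD2 at 0.97% to 5.41%, MTM1 at 0% to 5.36%, and CCS1 at 1.51% to 8.20% except for CRN in YPD-Mn with 7.43% and 19.6%. The intervals cover counting error only. The kit named in the labels does not mark strand, yet 90.7% to 93.3% of the reads on genes fell on one strand, so the share rests on the files and not on the stated protocol.

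**Figure D5:**
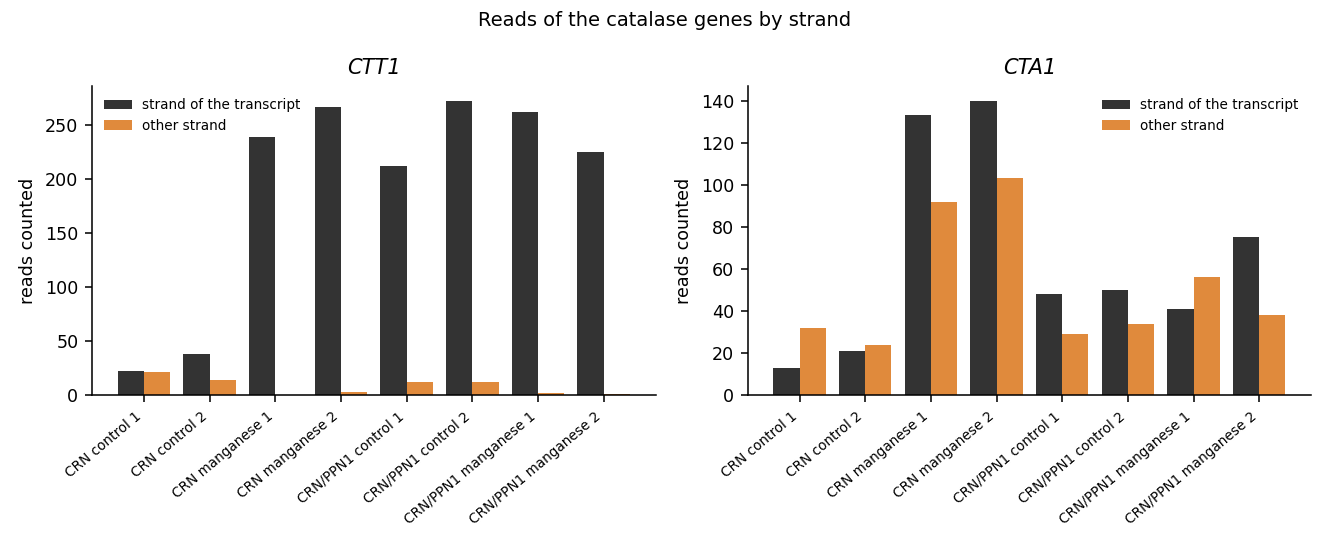
Reads counted at CTT1 (left) and CTA1 (right) in each of the 8 libraries, on the strand of the transcript (dark bars) and on the other strand (orange bars). At CTT1 the bars are alike in size only in replicate 1 of CRN in YPD, 23 and 22 reads, whereas CTA1 has 24 to 103 reads on the other strand in every library.

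The genes whose levels followed each of the 6 most closely over the 8 libraries were found by Pearson's r of log2 CPM among genes averaging 20 normalized CPM or more. For SOD1 these were ADK1 (adenylate kinase, r = 0.998), RPL26A (a ribosomal protein, 0.997) and YML079W (0.997), and for CCS1 they were MGE1 (0.995), RSM27 (0.994) and RPP1B (0.993). For SOD2 they were CCT6 (0.977), YLR257W (0.977) and MEX67 (0.975), and for MTM1 MSC6 (0.975), YOR097C (0.968) and YJR003C (0.966). For CTT1 they were GLC3 (the glycogen branching enzyme, 0.976), IPT1 (0.968) and SLM1 (0.967), and for CTA1 TYR1 (0.967), MNS1 (0.964) and YSC83 (0.956). The values describe 8 libraries in 4 groups, which share strain, medium and depth, and were picked as the highest of about 4976 genes, so they carry no test.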

How the data were processed

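Per the labels and the methods, the authors trimmed the reads (Trimmomatic 0.36), then aligned and counted them with STAR 2.5.3a on R64 (sacCer3); reads with several places in the genome are not in the counts. The deposited counts are raw, for 7126 genes, unstranded and for each strand. The counts used were those of reads aligned opposite to the gene, which made up 90.7% to 93.3% of the reads on genes. These are the reads called above those on the strand of the transcript, or the gene's own strand. Reads aligned to the same strand as the gene are those called above the other strand. The counts used equal the authors' table in 57008 of 57008 values.

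Counts were fitted in R 4.3.3 with edgeR 4.0.16 (quasi-likelihood in its earlier form, TMM, 4 group means, no block), with DESeq2 1.42.0 as an alternative, and the steps were tested on simulated data. Genes with 2 CPM in 4 libraries were kept. Standard errors came from the F statistic, and 95% intervals use the t quantile at 14.8 degrees of freedom. Coding lengths came from the RefSeq annotation, for 5537 tested genes. Each group has 2 replicates from simultaneous cultivations, so the spread behind the p-values is only that between such cultures. In edgeR this spread is pooled over the 4 groups and drawn toward the trend over all tested genes. Alternatives changed the scaling, filter, strand, test form, length trend, replicate block or library left out.

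Beside the 6 genes, a list names in each comparison no more than its 2 strongest called rises and 2 strongest called falls, with other values of genes so named. RMD5, RKM4, MIA40, PRX1, MSN2, MSN4, CUP1-1 and CUP1-2 are named for their place, role or a count they make up, after their values were seen. The genes and lists were chosen with earlier results of these data known, and no list was tested as a set. CRS5, listed with the copper genes, was not analysed here.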

Additional observations from a re-analysis of the deposited data

Results flagged for a closer look

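The change with manganese differed between CRN/PPN1 and CRN, by the interaction term of the edgeR fit, for 3 of the 6 genes: by 1.61 for SOD1 (adjusted p = 0.00177), by 0.87 for CCS1 (adjusted p = 0.0221) and by -1.73 for CTT1 (adjusted p = 0.00194). At an adjusted p of 0.05 or lower and any size of change, 30.5% of all tested genes passed this test. With the length trend removed SOD1 had 0.48 and CCS1 0.50, and on library totals SOD1 had 0.80 and CCS1 0.060; under these settings neither passed, nor did CCS1 on counts of either strand (0.68, adjusted p = 0.0661), while CTT1 passed under each of the 16 alternatives, with -2.54 to -1.08. The growth times differed between the strains in YPD-Mn, and their part in the result cannot be told apart.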

How the results depend on the processing

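Of the 30 fold changes of the 6 genes 9 were called. Of their 72 values under the other settings 20 lost the call and 0 turned sign, and of 72 with a library left out 4 lost it. Of 168 values of the 21 uncalled changes under the other settings, 7 gained a call and 22 turned sign. With the length trend removed, and also with a replicate block, the lost calls were, for manganese in CRN, SOD1 (-0.56 and -0.55), CCS1 (-0.89 and -0.89), CTT1 (0.81 and 0.81) and CTA1 (0.85 and 0.88), and SOD2 was called (1.33 and 1.34), leaving 1 called up and 0 down. SOD1 lost its call with manganese in CRN/PPN1 (-0.086 and -0.10), in YPD-Mn between the strains (0.52 and 0.51) and in the interaction (0.48 and 0.44), leaving 0 called down, 0 up and 0 up, by edgeR, in these 3 comparisons, with CTT1 still called down in the last. On library totals CCS1 in CRN (-0.021, leaving 1 called down), SOD1 in CRN/PPN1 (-0.54), in YPD-Mn between the strains (0.81) and in the interaction (0.80) lost theirs, and SOD2 with manganese in CRN (1.97) and CRN/PPN1 (1.26) and CTA1 in YPD (1.54) and in the interaction (-2.24) were called, for 1 up in CRN/PPN1 with manganese, 2 up in YPD and 2 down in the interaction. On either strand CTT1 (0.72) and CTA1 (0.71) lost theirs in CRN, leaving 0 called up.

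With 1 library left out, where the lone culture is assumed to vary like the others, the values ran as follows. For manganese in CRN, SOD1 had -2.96 to -2.63, CCS1 -1.55 to -1.42, CTT1 1.11 to 1.69 and CTA1 1.08 to 1.63, with 1 or 2 called up. SOD1 had -1.49 to -0.95 in CRN/PPN1, losing its call without replicate 1 of CRN/PPN1 in YPD-Mn (0 or 1 called down). It had 0.84 to 1.38 between the strains in YPD-Mn, losing it without replicate 1 of CRN (0.98) or replicate 2 of CRN/PPN1 (0.84) there, with 0 or 1 called up. CTA1 had -1.97 to -1.07 in the interaction and was called without replicate 2 of CRN/PPN1 in YPD-Mn, with 1 or 2 called down. CTT1 in YPD had 2.27 to 2.84.

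The labels do not say that a replicate number marks a shared cultivation, and with 2 replicates a group the deviations of same-numbered libraries, which correlated by 0.036 to 0.22 between groups, do not settle it; they were not treated as pairs. With a replicate block alone, CTA1 was called in the interaction (-1.50, adjusted p = 0.0463 by edgeR, 2 called down) and no other call of the 6 genes changed. On library totals the counts over all genes moved to 3675 up and 609 down in CRN, 1869 and 404 in CRN/PPN1, 913 and 37 between the strains in YPD, 393 and 877 in YPD-Mn, and 366 and 2146 in the interaction, from 1426 and 1389, 582 and 870, 257 and 257, 599 and 426, and 866 and 672. After removal of the length trend the calls were 326 down for manganese in CRN/PPN1, 66 down between the strains in YPD, and 302 up between them in YPD-Mn. The cause of these shifts was not tested. CTA1 had the fewest counts of the 6 genes, 13 to 140 a library.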
